A study of Homo sapiens with 9 samples.

Results

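The genes described here make sterols and fatty acids or control that synthesis in LNCaP, an androgen-responsive cell line established from a human prostate cancer. They form a list of 36 genes: 18 of the sterol branch, 12 of the fatty acid branch and 6 regulators and carriers. A gene was kept where a probe set of the array carried its symbol and no other, and it was read from whichever of its probe sets was brightest on average across the 9 arrays. This left 33 of 36 genes, of 19775 genes in all: 16 of 18 in the sterol branch, 11 of 12 in the fatty acid branch and all 6 regulators and carriers. FDFT1, CYP51A1 and FADS1 were not analysed here. All 33 passed the filter on dim genes, which kept 11865 genes for the tests. The choice of genes used no measured value of these arrays other than the mean level that picks the probe set, but the list was drawn up with earlier results of these data known.

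The study asked how LNCaP cells respond to the androgen dihydrotestosterone (DHT) and how that response looks when topoisomerase II, which untangles DNA by moving 1 double strand through a break in another, is inhibited or TOP2B is lowered. Each of 9 groups had 1 Affymetrix array. In the inhibitor series, untransfected cells were given 100 µM etoposide for 2 h and then 100 nM DHT for 16 h, or 100 µM merbarone for 2 h and then DHT, or DHT alone, or were grown in 10% serum (the steady state), or were kept without androgen as the control. In the shRNA series, cells carried a GFP vector with sh-TOP2B or with sh-control, received DHT or vehicle for 16 h, and were sorted for GFP. All groups except the steady state had spent 48 h without androgen, in medium with 5% serum stripped by charcoal, per the growth notes, so the control and vehicle arrays would share that deprivation with the DHT arrays. For the untransfected control array, the base of the steady-state comparison and of the untransfected DHT pair, 1 label says serum starved and another androgen deprived. It is taken here as the deprived control. Etoposide traps topoisomerase II on cut DNA, merbarone blocks its catalytic cycle without trapping it, and both act on the alpha as well as the beta enzyme. The labels describe a transfection and a sort and name no clone.

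Cholesterol is built from acetyl-CoA through mevalonate, squalene and lanosterol, and fatty acids are built from the same acetyl-CoA through malonyl-CoA and then elongated and desaturated. Both branches are controlled by the SREBP transcription factors, which are held in the endoplasmic reticulum by SCAP and the INSIG proteins while sterol is plentiful and are carried to the Golgi and cut free when it is not. SREBPs bind sterol regulatory elements, usually beside a CCAAT box bound by NF-Y. Androgen is known to raise lipid synthesis in prostate cancer cells, in part through this pathway.

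The promoters of 30 of the 33 genes were found in RefSeq (assembly GRCh38.p14), as 43 windows of 300 bases that run from 250 bases before the transcription start to 50 after it. CCAAT, on either strand, stood in 26 of these 43 windows (60.5%), against 34.6% of all 35116 windows of the same length, and 22 genes held it: 13 of the sterol branch, 6 of the fatty acid branch and 3 regulators and carriers. TCACNCCAC, a spelling of the sterol regulatory element, was in 1 window (2.33%, that of SREBF2), against 1.13% of all windows. CACGTG, the E-box, was in 6 windows (14.0%, against 7.26%), and AGAACA, a short element bound by the androgen receptor, in 1 (2.33%, PMVK, against 14.8%). No motif's letters hold another's, and a match describes the window only.

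The 200 bases before the start are shown for 5 genes, with every match of the 4 motifs in capitals on the strand printed (ATTGG is CCAAT read on the other strand). MSMO1 and EBP, late sterol enzymes with 4 and 3 CCAAT boxes, lie at chr4:165327469-165327668 and chrX:48521608-48521807. INSIG1, which holds 1 CCAAT box and 1 E-box, lies at chr7:155297678-155297877. SREBF2, which holds the sterol regulatory element, lies at chr22:41832905-41833104. INSIG2, whose first of 2 windows held no match, lies at chr2:118088271-118088470, and all 5 are on the plus strand.
MSMO1: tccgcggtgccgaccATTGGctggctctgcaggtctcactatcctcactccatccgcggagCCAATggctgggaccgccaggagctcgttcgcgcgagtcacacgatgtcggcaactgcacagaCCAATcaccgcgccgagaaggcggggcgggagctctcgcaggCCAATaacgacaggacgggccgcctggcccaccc
EBP: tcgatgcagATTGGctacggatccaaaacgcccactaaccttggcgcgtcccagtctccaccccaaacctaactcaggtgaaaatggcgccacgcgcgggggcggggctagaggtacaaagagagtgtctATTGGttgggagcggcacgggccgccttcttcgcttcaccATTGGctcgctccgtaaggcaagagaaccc
INSIG1: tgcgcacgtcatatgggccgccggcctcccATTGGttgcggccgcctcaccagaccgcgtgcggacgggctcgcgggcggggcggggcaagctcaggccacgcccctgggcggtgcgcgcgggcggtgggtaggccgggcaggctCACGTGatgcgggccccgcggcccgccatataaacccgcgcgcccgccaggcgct
SREBF2: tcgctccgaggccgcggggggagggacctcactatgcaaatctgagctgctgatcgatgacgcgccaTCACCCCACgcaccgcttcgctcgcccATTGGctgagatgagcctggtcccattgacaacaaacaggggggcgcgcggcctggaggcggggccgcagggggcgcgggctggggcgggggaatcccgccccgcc
INSIG2: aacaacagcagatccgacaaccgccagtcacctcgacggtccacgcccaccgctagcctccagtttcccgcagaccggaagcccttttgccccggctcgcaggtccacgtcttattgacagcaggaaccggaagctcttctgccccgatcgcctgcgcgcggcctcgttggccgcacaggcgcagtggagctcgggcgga

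All values are log2 expression values as deposited, differences are log2 differences, and errors are standard errors (SE) of a limma fit unless named otherwise. A gene passed the test where its p, adjusted over all 11865 genes by the Benjamini-Hochberg method, was below 0.05. DHT was compared with deprivation in 3 backgrounds (sh-TOP2B, sh-control and untransfected cells), and this is the only replication. The steady-state and compound comparisons set 1 array against 1, and sh-TOP2B over sh-control averages the differences with vehicle and with DHT. All of these take their spread from how far the 3 DHT differences disagree. The difference between DHT responses takes its spread from the sh-control and untransfected pairs alone. The p-values reflect no more than the scatter of these samples, which may be technical. The array medians lay between 5.61 and 5.72, and MVD, which encodes the decarboxylase of the mevalonate pathway, was the only one of the 33 genes below its array's median, on 1 array.

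The inhibitor and shRNA series stood apart. Between sh-control cells with vehicle and untransfected control cells, 14 of the 33 genes differed by 1 log2 unit or more (7 upward, 7 downward), as did 2657 genes upward and 1303 downward over all tested. EBP was higher by 4.21 and HMGCS1 by 2.94, while SREBF1 was at -2.62 and FASN at -1.99. The second HMGCS1 probe set went the other way (-1.54), so both size and direction for HMGCS1 depend on the probe set. The other probe sets of SREBF1 (0.30) and FASN (0.27), both dimmer, also went the other way. The other EBP probe sets were at 1.81, 4.92 and, for a dim one, -0.34. The beta-actin 3' minus 5' difference, a measure of RNA integrity, was between 2.38 and 3.09 on the sorted arrays, against 0.38 to 0.70 in the inhibitor series. Series, transfection, sort and RNA state cannot be told apart, and levels are compared only within a series below. Of 8 luminal prostate markers, 6 were above the array median on all 9 arrays, KLK3 and KLK2 being the exceptions. Below it on all 9 were 3 of 4 fibroblast, 2 of 3 blood and 1 of 3 endothelial markers. COL1A1 of the fibroblast list (9.26 to 9.63 on the sorted arrays, 8.05 to 8.63 in the inhibitor series) and VWF of the endothelial list were above it on all 9, and their part in the results was not tested.

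**Figure D1:**
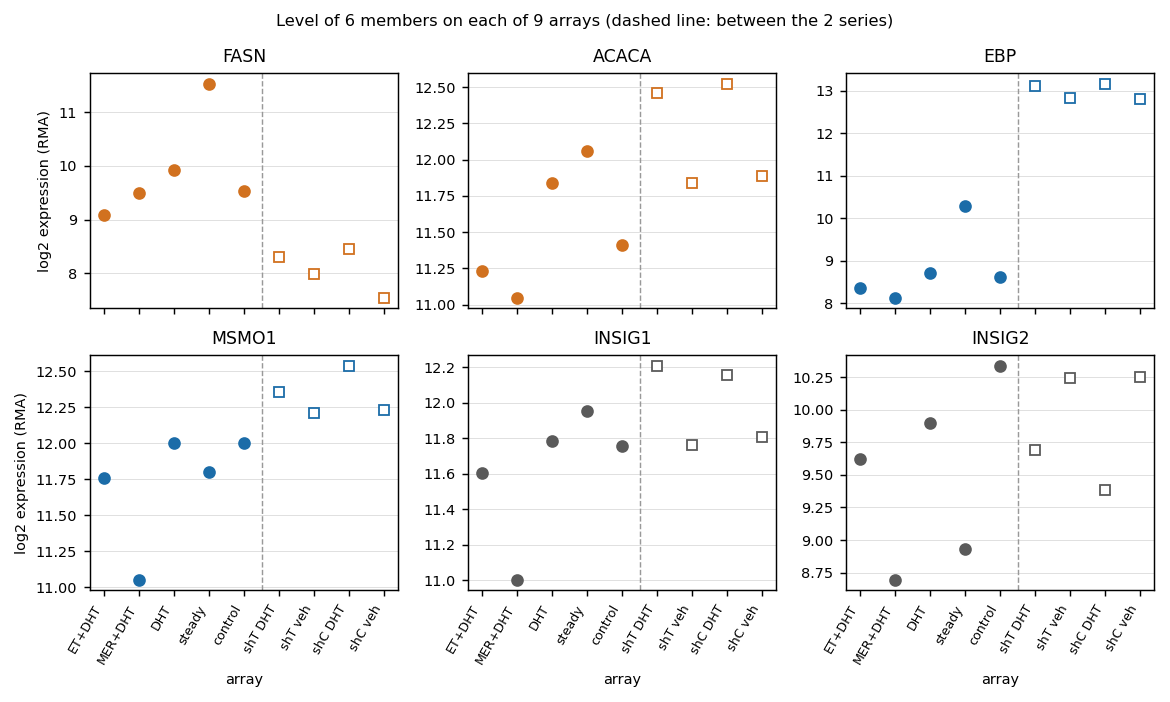
Log2 expression (vertical axis) of 6 genes on each of the 9 arrays (horizontal axis), with filled circles for the inhibitor series, open squares for the sorted shRNA series and a dashed line between them. FASN stands at 11.52 in the steady state, and INSIG1 and MSMO1 are lowest with merbarone (11.00 and 11.05).

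Cells grown in full serum were set against the deprived control. These arrays differ at once in the amount of serum (10% against 5%), in its stripping by charcoal and in the 48 h without androgen. These cannot be told apart. In the steady state 5 of 11 fatty acid genes rose and 0 fell, 5 of 16 sterol genes rose and 2 fell, and of the 6 regulators and carriers INSIG2 fell. Over all genes tested 28.1% passed, 15.7% higher and 12.4% lower. FASN, the fatty acid synthase gene, stood at 11.52 in the steady state, against 9.54 in the deprived control. It rose by 1.99 ± 0.23, or 3.97-fold (limma adjusted p = 0.00158). The other FASN probe set, much dimmer with a mean of 5.95, differed by 0.07, so the rise rests on 1 probe set.

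ACLY, which makes cytosolic acetyl-CoA from citrate, had 12.59 in the steady state and 11.80 in the deprived control, a rise of 0.79 ± 0.10 (adjusted p = 0.00203). ELOVL5, an elongase of polyunsaturated fatty acids, rose by 0.70 ± 0.19 (12.97 against 12.27, adjusted p = 0.0383). That call was lost with the median over probe sets (adjusted p = 0.104), without the trend, without the filter, with centred arrays and without the sh-TOP2B pair (0.0685). ACACA, the acetyl-CoA carboxylase that makes malonyl-CoA, rose by 0.64 (12.06 against 11.41), and FADS2, the delta-6 desaturase, by 0.62 (10.90 against 10.28). All 11 genes of the fatty acid branch had a positive difference in the probe sets used, and the 5 that rose were 45.5% of them, against 15.7% of all genes tested. Their median was 0.64, against 0.04 over all genes. ELOVL7, an elongase of saturated very long chains, was at 1.06 ± 0.52 (10.93 against 9.87) and did not pass (adjusted p = 0.188). SCD, the stearoyl-CoA desaturase, was at 0.13, but its other 3 probe sets were at -0.19, -1.35 and -1.20, values singled out after they were seen.

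In the sterol branch, 5 of 16 genes rose (31.2%, against 15.7% of all genes tested) and 2 fell (12.5%, against 12.4%), with a median of 0.07. EBP, the sterol isomerase, had 10.29 in the steady state and 8.61 in the deprived control, a rise of 1.68 ± 0.13 (3.20-fold, adjusted p = 0.000362). Its other bright probe sets, of 4 in all, were at 1.27 and 0.81. ACAT2, the thiolase that joins acetyl-CoA units at the entry of the pathway, rose by 0.95 ± 0.19 (10.19 in the steady state against 9.25, adjusted p = 0.0116). The other rises were those of FDPS, the farnesyl diphosphate synthase (0.63), DHCR7, the reductase of the last step (0.49), and PMVK, the phosphomevalonate kinase (0.47). FDPS passed only just (limma adjusted p = 0.0499). The second DHCR7 probe set was at -0.12. TM7SF2, a sterol reductase of the steps after lanosterol, fell by 0.68 ± 0.19 (11.74 against 12.43, adjusted p = 0.0375). The TM7SF2 call was lost without the sh-control pair (adjusted p = 0.0602) or the sh-TOP2B pair (0.0698), without the trend, without the filter and with quantile normalization again. HSD17B7, the ketosteroid reductase, fell by 0.67 ± 0.13 (10.54 against 11.22, adjusted p = 0.00920), and it is read from a probe set of the type whose probes can match other transcripts.

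Among the regulators, INSIG2, which retains the SCAP and SREBP complex, had 8.93 in the steady state and 10.33 in the deprived control. It fell by 1.41 ± 0.19, or 2.65-fold (adjusted p = 0.00243). Its paralog INSIG1, itself an SREBP target, was at 0.19 (11.95 against 11.76), and STARD4, a carrier of cholesterol through the cytosol, was at 0.25 (9.30 against 9.05). Neither passed, and SREBF1, SREBF2 and SCAP lay between -0.03 and 0.11.

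In all, 13 of the 33 genes passed (39.4%), against 28.1% of all genes tested. Split by direction, 10 rose (30.3%, against 15.7%) and 3 fell (9.09%, against 12.4%). With arrays centred on control probe sets, which moved the median of all genes by -0.09, 6 rose and 3 fell and the median of the sterol branch was -0.02. With the median over probe sets 6 rose and 5 fell, and 9 of these 11 were among the 13. The count was 8 without the sh-control pair and 7 without the sh-TOP2B pair.

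**Figure D2:**
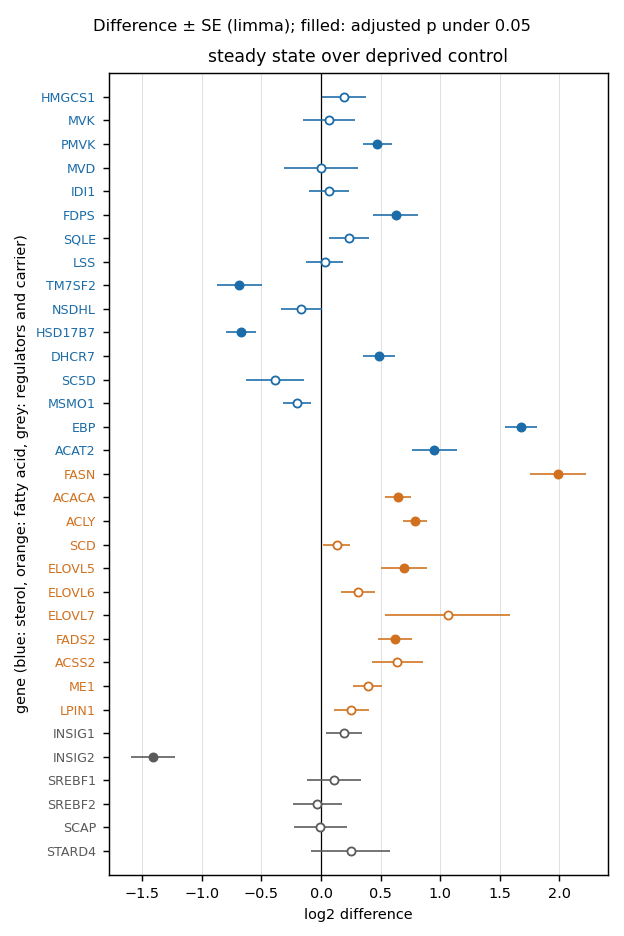
Log2 difference of each of the 33 genes (rows) between the steady state and the deprived control (horizontal axis), with the limma SE as bars and filled points where the adjusted p was below 0.05. All 11 fatty acid genes (orange) lie right of 0, while sterol genes (blue) run from -0.68 for TM7SF2 to 1.68 for EBP.

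DHT was compared with deprivation in sh-TOP2B, sh-control and untransfected cells. In the fit over all 3 backgrounds, ACACA alone passed among the 33 genes. In sh-TOP2B cells it stood at 12.46 with DHT and 11.84 with vehicle. The sh-control arrays gave 12.52 with DHT and 11.89 with vehicle, and the untransfected arrays 11.84 with DHT and 11.41 without. Within every background the DHT array was the higher of the pair, by 0.62, 0.64 and 0.43. ACACA rose by 0.56 ± 0.06, or 1.48-fold (limma adjusted p = 0.0298, 3 pairs). This is 3.03% of the 33 genes, against 0.447% of all genes tested (0.421% higher and 0.0253% lower). The call was lost without the sh-control pair (adjusted p = 0.536) and without the sh-TOP2B pair (0.433).

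Several genes had larger or similar differences that varied more between the pairs. ELOVL7 had 11.75 with DHT and 9.96 with vehicle in sh-TOP2B cells. It had 11.91 with DHT and 9.78 with vehicle in sh-control cells, and 10.24 with DHT and 9.87 without in untransfected cells. The step was thus 1.79 and 2.13 in the sorted pairs and 0.38 in the untransfected pair, and the mean of 1.43 ± 0.30 did not pass (adjusted p = 0.0950). SCAP, the escort of SREBP to the Golgi, differed by 0.88, 0.87 and 0.32 in the same order of backgrounds (mean 0.69, adjusted p = 0.0855). ELOVL5 differed by 0.67, 0.86 and 0.24 (mean 0.59, adjusted p = 0.0855), and FASN by 0.31, 0.90 and 0.40 (mean 0.53, adjusted p = 0.127). FASN, ELOVL5, ELOVL7 and SCAP were therefore higher with DHT in all 3 pairs without passing the test. For FASN this rests on the probe set used, as the other, much dimmer, had a mean DHT difference of -0.06.

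INSIG2 was lower with DHT in all 3 pairs. It had 9.69 with DHT and 10.24 with vehicle in sh-TOP2B cells. Sh-control cells gave 9.39 with DHT and 10.25 with vehicle, and untransfected cells 9.90 with DHT and 10.33 without. The mean difference was -0.62 ± 0.11 (adjusted p = 0.0814), so it did not pass. INSIG1 was at 0.44, 0.35 and 0.03 (mean 0.27, adjusted p = 0.177). Among sterol genes, TM7SF2 had a mean of -0.35 (-0.46, -0.56 and -0.01), ACAT2 one of 0.43 (0.61, 0.54 and 0.15) and IDI1, the isopentenyl diphosphate isomerase, one of 0.34 (0.53, 0.43 and 0.07). The 4 IDI1 probe sets did not move together.

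Over the 33 genes, 14 were higher with DHT in all 3 pairs (42.4%, against 18.0% of all genes tested) and 6 were lower in all 3 (18.2%, against 21.9%). The fatty acid branch gave 6 of 11 higher and 2 lower, the sterol branch 6 of 16 higher and 3 lower, and the regulators and carriers 2 of 6 higher and 1 lower. At an unadjusted p under 0.05, 13 of the 33 genes (39.4%) stood out, against 19.3% of all genes. The branch medians in sh-TOP2B, sh-control and untransfected cells were 0.13, 0.24 and -0.01 for sterol genes and 0.12, 0.29 and 0.24 for fatty acid genes.

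When the spread was taken from the sorted pairs alone, with the untransfected pair left out, 17 of the 33 genes passed (51.5%), against 20.0% of all genes tested. Of these, 15 were higher (45.5%, against 8.86%): 6 fatty acid genes, 6 sterol genes and 3 regulators. Another 2, TM7SF2 and INSIG2, were lower (6.06%, against 11.2%). ELOVL7 then had a mean of 1.96 ± 0.09 (limma adjusted p = 1.68e-07), ELOVL5 one of 0.77 (adjusted p = 9.65e-06), SCAP one of 0.87 (adjusted p = 5.37e-05) and SC5D, the sterol desaturase, one of 0.56 (adjusted p = 7.10e-05). These p-values take their spread from the sh-TOP2B and sh-control pairs of the same series. They do not measure agreement with untransfected cells, where ELOVL7 differed by 0.38. In both sorted pairs the actin measure of RNA integrity also moved with DHT. It was 2.38 with DHT against 2.69 with vehicle in sh-TOP2B cells and 2.67 against 3.09 in sh-control cells, but 0.46 against 0.47 in untransfected cells. The same measure for GAPDH was 0.518 with DHT against 0.522 with vehicle in sh-TOP2B cells and 0.519 against 0.635 in sh-control cells. In untransfected cells it was 0.203 with DHT against 0.172 without. The part of RNA integrity in the calls of the sorted pairs was not tested.

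**Figure D3:**
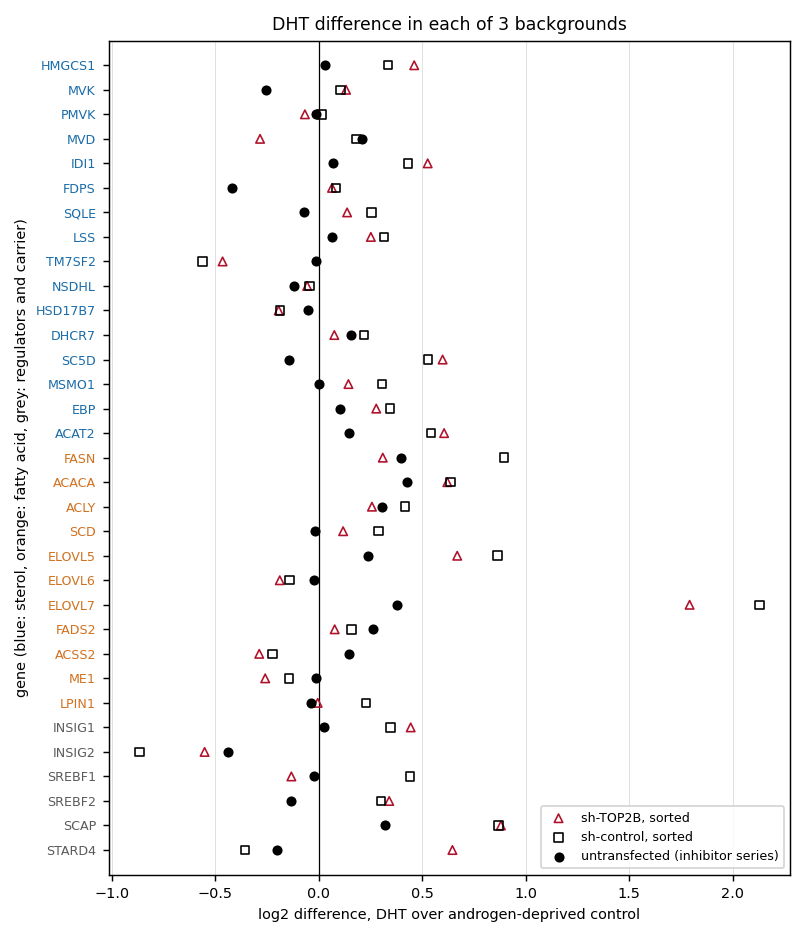
Log2 difference between DHT and the deprived state (horizontal axis) for each of the 33 genes (rows) in sh-TOP2B cells (red triangles), sh-control cells (open squares) and untransfected cells (filled circles). ELOVL7 reaches 1.79 and 2.13 in the sorted pairs and 0.38 in the untransfected pair, and INSIG2 lies left of 0 in all 3.

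Etoposide with DHT was set against DHT alone, and none of the 33 genes passed. Over all genes tested 1.05% did (0.211% higher and 0.834% lower), and at an unadjusted p under 0.05 there were 10 of the 33 genes (30.3%), against 14.6% of all genes. Below 0 were 26 of 33 (78.8%, against 58.6% of all genes), with a median of -0.23, against -0.06 over all genes. Sterol genes had a median of -0.23 and fatty acid genes one of -0.24. With arrays centred on control probe sets, which shifted all genes by 0.10, these medians were -0.13 and -0.14.

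FASN had 9.08 with etoposide and 9.93 with DHT alone (-0.85 ± 0.23, limma adjusted p = 0.175). SQLE, the squalene epoxidase, had 9.49 with etoposide and 10.17 with DHT alone (-0.68, adjusted p = 0.146). DHCR7 had 9.82 against 10.47 (-0.65, adjusted p = 0.0883), SREBF1, the gene of SREBP-1, 9.87 against 10.52 (-0.65, adjusted p = 0.250) and ACACA 11.23 against 11.84 (-0.61, adjusted p = 0.0643). The other FASN and ACACA probe sets, both dimmer, were at 0.12 and 0.14, and the medians over probe sets were -0.36 and -0.23. In the probe sets used, FASN, ACACA and SREBF1 were each lower with etoposide than on the deprived control array too (9.54, 11.41 and 10.54). SC5D stood the other way, at 12.66 with etoposide and 11.98 with DHT alone (0.68, adjusted p = 0.266), but its other, dimmer probe set was at -0.33. ACLY was at -0.30, INSIG2 at -0.28 and STARD4 at -0.23. The count of 0 depends on the untransfected DHT pair, without which 7 genes passed (21.2%, against 9.09% of all genes tested). Of these SC5D was higher (3.03%, against 2.28%) and 6 were lower (18.2%, against 6.82%).

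Merbarone with DHT, at the same dose and time, gave lower levels of many of the 33 genes in both branches. In all, 19 passed (57.6%), against 31.7% of all genes tested. The split was 17 lower (51.5%, against 16.3%) and 2 higher (6.06%, against 15.4%). By branch, 8 of 16 sterol genes fell and 2 rose, 6 of 11 fatty acid genes fell and 0 rose, and 3 of 6 regulators and carriers fell. The medians were -0.48 for sterol genes, -0.51 for fatty acid genes and -0.72 for regulators and carriers, and 0 over all genes tested.

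TM7SF2 had 10.80 with merbarone and 12.41 with DHT alone, and it fell by 1.61 ± 0.19, or 3.06-fold (limma adjusted p = 0.00164). MSMO1, the oxidase that removes methyl groups after lanosterol and whose promoter is shown with 4 CCAAT boxes, had 11.05 with merbarone and 12.00 with DHT alone and fell by 0.95 ± 0.12 (adjusted p = 0.00211). SQLE fell by 0.87 (9.31 against 10.17, adjusted p = 0.00981). The other sterol genes that fell were HMGCS1, DHCR7, HSD17B7, EBP and IDI1, between -0.79 and -0.56. The IDI1 probe sets disagreed, at -0.56, -0.67, 0.03 and 0.81. ACAT2 and PMVK rose, by 0.80 ± 0.19 (10.19 against 9.39, adjusted p = 0.0196) and 0.46 ± 0.12 (10.24 against 9.78, adjusted p = 0.0290). Neither rise passed without the sh-control pair (adjusted p = 0.0504 and 0.0613) or without the trend, and that of PMVK did not pass without the sh-TOP2B pair (0.0951).

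Among fatty acid genes, ELOVL6, the elongase of palmitate, had 8.40 with merbarone and 9.56 with DHT alone. It fell by 1.16 ± 0.14, or 2.23-fold (adjusted p = 0.00191), and its other probe sets were at -1.24 and -1.77. ACLY fell by 0.88 ± 0.10 (11.22 against 12.10, adjusted p = 0.00145) and ELOVL5 by 0.86 ± 0.19 (11.64 against 12.51, adjusted p = 0.0166). The median over the ELOVL5 probe sets, most of them dim, was 0.12, and its call was lost without the trend (adjusted p = 0.0657). ACACA, FADS2 and SCD fell by 0.79, 0.68 and 0.51, and the other 3 SCD probe sets were lower as well (-0.52, -0.98 and -1.04). FASN did not pass, at 9.49 with merbarone and 9.93 with DHT alone (-0.44, adjusted p = 0.209).

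Among regulators, INSIG2 had 8.70 with merbarone and 9.90 with DHT alone, a fall of 1.20 ± 0.19 (adjusted p = 0.00436). SREBF1 fell by 0.95 ± 0.22 (9.56 against 10.52, adjusted p = 0.0194) and INSIG1 by 0.78 ± 0.15 (11.00 against 11.78, adjusted p = 0.00948). With the median over probe sets INSIG1 was at -0.55 and did not pass (adjusted p = 0.153). SREBF2, the gene of SREBP-2, was at -0.66 (9.02 against 9.68) and did not pass (adjusted p = 0.0504), while SCAP was at 0.07. Of the 11 called genes with several probe sets above the array median, 10 had these probe sets on the same side of 0, IDI1 being the exception.

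**Figure D4:**
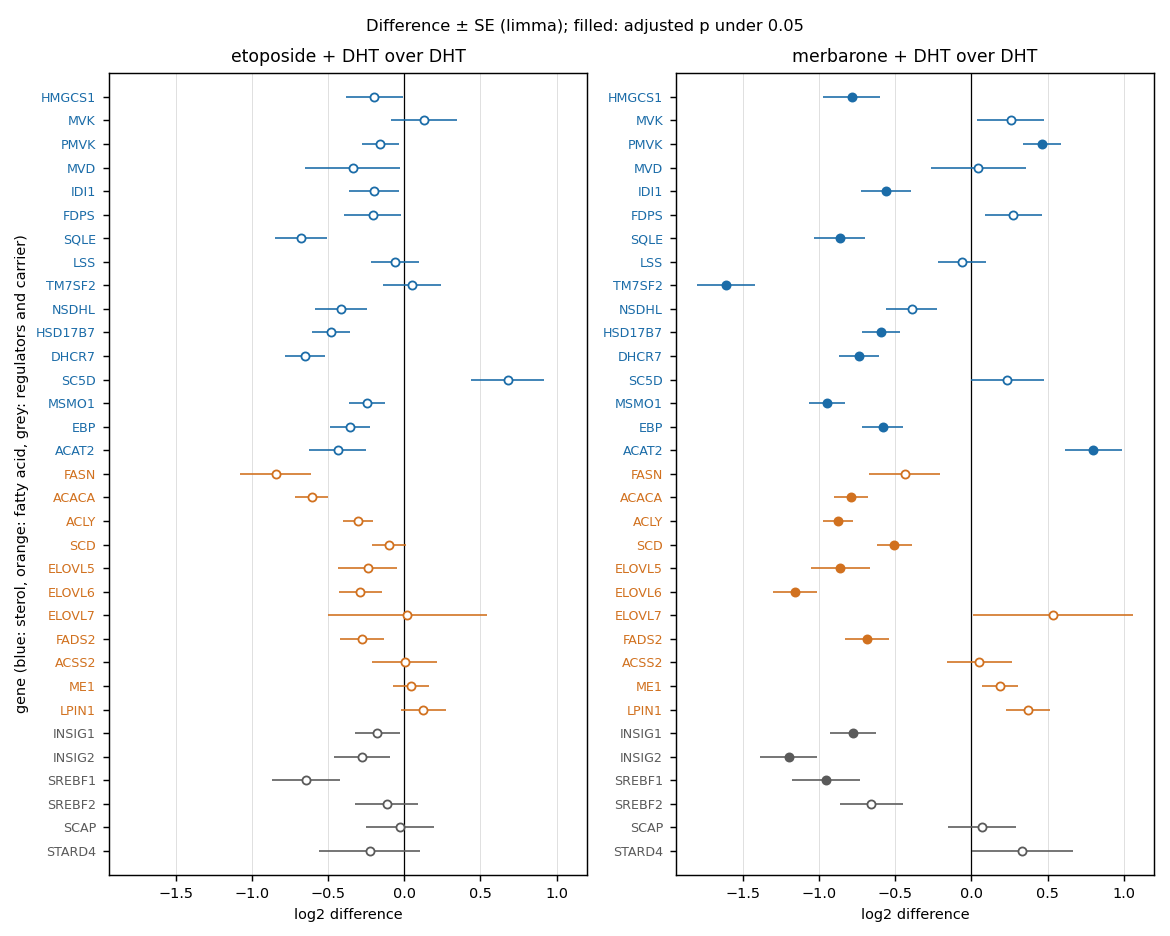
Log2 difference of each of the 33 genes (rows) with etoposide and DHT over DHT alone (left) and with merbarone and DHT over DHT alone (right), with the limma SE as bars and filled points where the adjusted p was below 0.05. No point is filled for etoposide, and 19 are filled for merbarone, 17 of them left of 0.

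The compounds were also compared with each other, at 100 µM each and the same times. Both had been compared with the same DHT array, so those values are not independent of each other, and the direct difference leaves that array out. Between etoposide and merbarone 11 of the 33 genes differed (33.3%), close to the 32.6% of all genes tested. With etoposide 9 were higher (27.3%, against 13.5%) and 2 lower (6.06%, against 19.1%). TM7SF2 had 12.46 with etoposide and 10.80 with merbarone, a difference of 1.66 ± 0.19 (limma adjusted p = 0.00169). INSIG2 was higher with etoposide by 0.92 (9.62 against 8.70, adjusted p = 0.0113), ELOVL6 by 0.87 (9.27 against 8.40, adjusted p = 0.00545) and MSMO1 by 0.70 (11.76 against 11.05, adjusted p = 0.00629).

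ELOVL5 (0.62), INSIG1 (0.60), HMGCS1 (0.59), ACLY (0.57) and SCD (0.41) were also higher with etoposide, and the second HMGCS1 probe set differed by 0.00. ELOVL5 and HMGCS1 passed only just (limma adjusted p = 0.0499 for each). The calls of ELOVL5 and INSIG1 were lost without the sh-control pair (adjusted p = 0.0545 and 0.0591) and, for ELOVL5, without the sh-TOP2B pair (0.0824). Both were lost without the trend and with the median over probe sets, where ELOVL5 changed sign (-0.29). That of ELOVL5 was also lost without the filter. ACAT2 was lower with etoposide, at 8.95 against 10.19 with merbarone (-1.24 ± 0.19, adjusted p = 0.00438), and so was PMVK, at 9.62 against 10.24 (-0.62, adjusted p = 0.0105). STARD4 was at -0.56 and did not pass. FASN did not pass either, at 9.08 with etoposide and 9.49 with merbarone (-0.41 ± 0.23, adjusted p = 0.237). For DHCR7 and SQLE the differences were 0.08 ± 0.13 and 0.19 ± 0.17, close to their SE.

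In sh-TOP2B cells the targeted gene was checked first. TOP2B had 10.01 with DHT and 10.09 with vehicle in sh-TOP2B cells, against 10.87 with DHT and 10.54 with vehicle in sh-control cells. It was lower by 0.86 with DHT and by 0.45 with vehicle, a mean of -0.66 that did not pass (limma adjusted p = 0.0932). None of the 33 genes passed between sh-TOP2B and sh-control cells, where 1.05% of all genes tested did, all of them higher. The 33 differences lay between -0.21 and 0.15 with a median of -0.01. At an unadjusted p under 0.05 there was 1 (3.03%, against 7% of all genes tested).

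That gene was ACLY, at 11.74 with DHT and 11.48 with vehicle in sh-TOP2B cells, against 12.03 with DHT and 11.61 with vehicle in sh-control cells. Its difference of -0.21 ± 0.07 had an adjusted p of 0.575, and it was lower in both sh-TOP2B arrays. With the median over probe sets the ACLY difference was 0.012. ME1, the malic enzyme that supplies NADPH, was at -0.16, SC5D at -0.16, ELOVL5 at -0.15 and STARD4 at -0.13. NSDHL, a dehydrogenase of the demethylation steps, was at -0.11, SQLE at -0.10, SCAP at -0.08 and INSIG2 at 0.15. With DHT, all 11 fatty acid genes were lower in sh-TOP2B than in sh-control cells, with a median of -0.12, against -0.02 over all genes tested. These values come from 1 pair of arrays, and in the same pair 8 sterol genes were higher and 8 lower. With vehicle 5 fatty acid genes were higher and 6 lower. For the mean over vehicle and DHT, 8 of the 11 were lower (72.7%, against 57.5% of all genes tested). No test of these counts was made, and the share of all genes lower in the pair with DHT alone was not counted.

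The DHT difference of sh-TOP2B cells was also set against that of the other backgrounds. None of the 33 genes passed, and 0.00% of all genes tested did (205 genes, or 1.73%, at an unadjusted p under 0.05). STARD4 was the only one of the 33 at an unadjusted p under 0.05. It had 9.81 with DHT and 9.16 with vehicle in sh-TOP2B cells. Sh-control cells gave 9.44 with DHT and 9.79 with vehicle, and untransfected cells 8.85 with DHT and 9.05 without. DHT thus went with a higher level in sh-TOP2B cells and a lower one in the others, a difference between responses of 0.92 ± 0.25 (unadjusted p = 0.00946, limma adjusted p = 1.00). Set against the mean of the other backgrounds, the DHT difference was at 0.54 for ELOVL7, 0.41 for SC5D, 0.29 for SCAP and 0.28 for HMGCS1, none past the test. Against sh-control cells alone it was smaller for ELOVL7 (1.79 against 2.13) and nearly equal for SCAP (0.88 against 0.87). MVD was at -0.48, FASN at -0.34, SREBF1 at -0.34 and ACSS2, the acetyl-CoA synthetase for acetate, at -0.25, none past the test.

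Of the comparisons made, the branch medians lay farthest apart in the steady state. There the median of sterol genes less that of fatty acid genes was -0.57. The same difference of medians had a standard deviation of 0.14 over the 3 DHT pairs, a spread of DHT responses and not of steady-state arrays. With etoposide it was 0.01, with merbarone 0.03 and between the compounds -0.08. In the DHT pairs it was 0.02 in sh-TOP2B cells, -0.05 in sh-control cells and -0.24 in untransfected cells. The untransfected pair shares its deprived array with the steady-state comparison. No p is given for these medians.

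**Figure D5:**
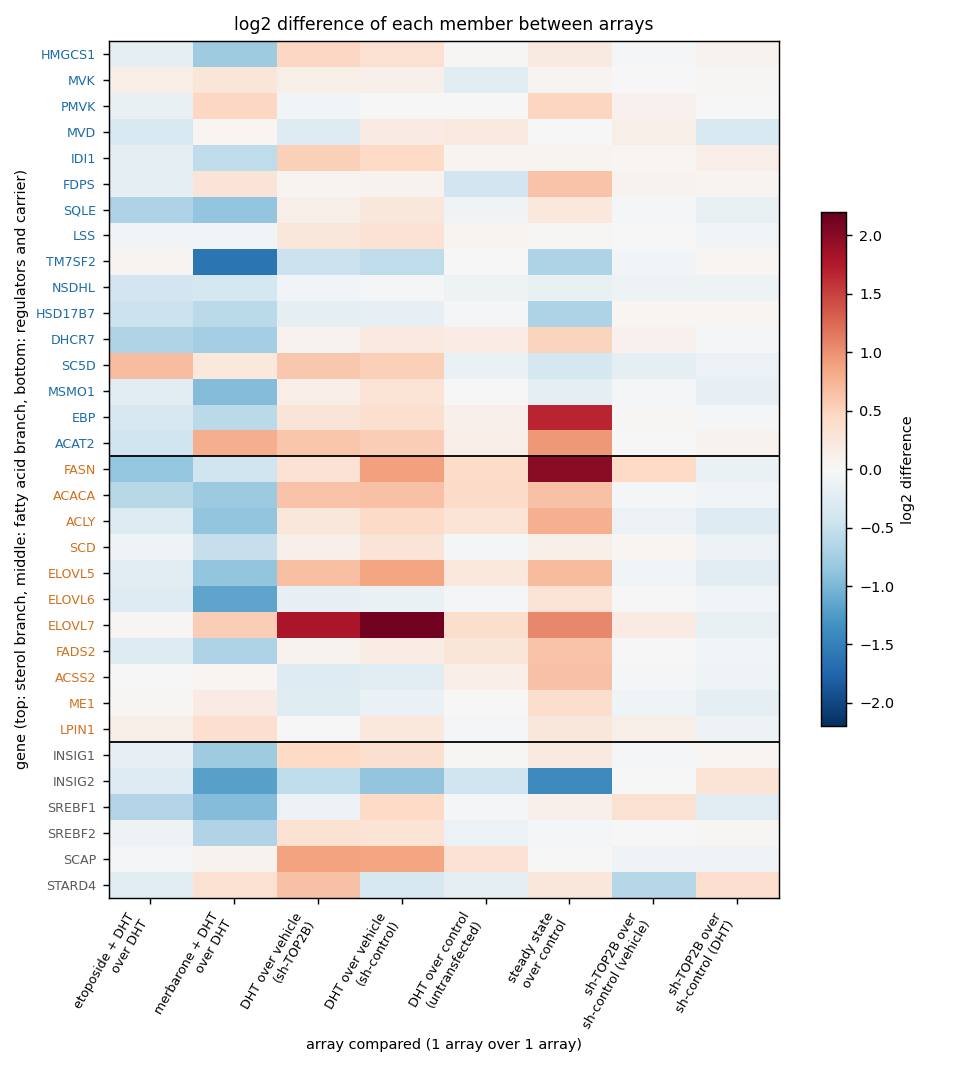
Log2 difference (colour, red higher and blue lower) of the 33 genes (rows, with lines between the sterol branch, the fatty acid branch and the regulators and carriers) in 8 comparisons of 1 array with 1 (columns). The merbarone column is mostly blue in every block, the steady-state column is red in the fatty acid block, and the sh-TOP2B columns on the right are pale.

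Neighbouring pathways were described by count from lists of 12 genes for SREBP processing and its cofactors, 18 for fatty acid oxidation and 8 for sterol export and LXR, the oxysterol receptor, of which 10, 16 and 7 were tested. None of these genes passed for DHT, for etoposide over DHT or in the sh-TOP2B comparisons. With merbarone 4 of 10 SREBP processing genes fell (40%, against 16.3% of all genes tested) and 0 rose (against 15.4%), with a median of -0.28, against 0 over all genes. They were NFYB (-0.99), a subunit of NF-Y, ERLIN2 (-0.69), which takes part in the degradation of sterol enzymes, MBTPS2 (-0.61), the site-2 protease that frees SREBP, and RNF139 (-0.50), a ubiquitin ligase of the endoplasmic reticulum. Of 16 fatty acid oxidation genes 4 fell with merbarone (25%, against 16.3%) and 0 rose (against 15.4%), with a median of -0.04. These were CPT2 (-1.96), SLC25A20 (-1.20), CPT1A (-0.84) and ETFDH (-0.74). The first 3 of these carry acyl groups into mitochondria.

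Of 7 sterol export and LXR genes, NR1H3 (0.96), which encodes LXR alpha, and MYLIP (0.93), which degrades the LDL receptor, rose with merbarone, and LPCAT3 (-1.13) fell. In the steady state, where 12.4% of all genes fell and 15.7% rose, 4 of 10 SREBP processing genes fell and 0 rose: ERLIN2 (-1.41), SPRING1 (-0.80), MBTPS2 (-0.51) and RNF139 (-0.47). Of 16 oxidation genes 2 rose (12.5%), ECI1 (1.08) and ETFB (1.00), and 3 fell (18.8%): ACAA2 (-0.73), ACADVL (-0.64) and HADHB (-0.52). Of 7 sterol export and LXR genes NR1H3 (0.87) rose. ABCG1 (-1.13), a sterol exporter, LPCAT3 (-0.64) and NPC2 (-0.42), a lysosomal cholesterol carrier, fell. Between the compounds 2 of 10 SREBP processing genes (20%), 5 of 16 oxidation genes (31.2%) and 2 of 7 sterol export and LXR genes (28.6%) passed. Over all genes tested 32.6% did. The genes in these lists were named after their values were seen.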

How the data were processed

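The deposited values are log2 expression values of 9 Affymetrix arrays with 54675 probe sets, made by the authors with RMA, per the submitters' processing notes. That method forces the arrays onto one distribution, which hides any change common to most genes; which version was used, and what followed it, is not given in the sources used here. Probe sets were named from the platform annotation: 41097 had 1 gene symbol, 1801 had several and 11777 had none. Some genes are not reported here. The members, the other lists and the tests were chosen with earlier results of these data known.

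Genes below the 40th percentile of mean level were left out. In R 4.3.3 with limma 3.58.1, a two-sided fit with an intensity trend had a block for each of the 3 backgrounds, a term for DHT and a term of its own for each lone array, with 2 residual and 4.62 prior degrees of freedom. Each DHT pair shares a background, so this fit is the paired one. The fit for the difference between DHT responses had 1 residual and 5.16 prior degrees of freedom. The median SE of a lone-array difference was 0.196. Each comparison names every member past the test (beyond 10, the 5 largest each way) and the 3 largest differences of each branch. Genes given only as further values of a comparison were named after their values were seen. Promoter windows came from RefSeq (GRCh38.p14). The fits were tested on simulated data. The number of arrays limits the precision, and depth has no counterpart on an array.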

Additional observations from a re-analysis of the deposited data

Results flagged for a closer look

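Of all 11865 genes tested, 7127 were neither higher with DHT in all 3 pairs nor lower in all 3. Of the 33 genes this held for 13, so mixed signs were less common among them than over all genes. Among the 33 genes, 2 had a DHT difference in sh-TOP2B cells opposite in sign to both other backgrounds. STARD4 was at 0.65 in sh-TOP2B cells, against -0.36 in sh-control and -0.20 in untransfected cells. MVD was at -0.28 in sh-TOP2B cells, against 0.18 in sh-control and 0.21 in untransfected cells, and it was below the array median with DHT in sh-TOP2B cells. The difference between responses was 0.92 for STARD4 and -0.48 for MVD, and neither passed limma's test (adjusted p = 1.00 for each).

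For 7 genes the sorted backgrounds had one sign and the untransfected cells the other. In untransfected cells the DHT difference was -0.26 for MVK, -0.42 for FDPS, -0.073 for SQLE, -0.14 for SC5D, -0.13 for SREBF2, -0.019 for SCD and 0.15 for ACSS2. In sh-TOP2B and sh-control cells it was 0.13 and 0.11 for MVK, 0.06 and 0.08 for FDPS, 0.14 and 0.26 for SQLE, and 0.60 and 0.53 for SC5D. It was 0.34 and 0.30 for SREBF2, 0.12 and 0.29 for SCD, and -0.29 and -0.22 for ACSS2. The difference between untransfected and sorted cells was not tested.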

How the results depend on the processing

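Of 530 values of named genes under the alternatives, 479 kept their direction and their side of the threshold, 29 kept the direction but no longer passed, 16 newly passed and 6 changed sign. The changes of sign came with the median over probe sets: IDI1 for DHT (-0.011), ELOVL5 with merbarone (0.12), between the compounds (-0.29) and with sh-TOP2B (0.041), ACLY with sh-TOP2B (0.012) and FASN in the difference between responses (0.038). The added ELOVL5 probe sets were below the array median on some or all arrays. Those of IDI1, ACLY and FASN were above it on all 9, so dimness below the median does not set these apart. The 1 call for DHT (ACACA) became 0 without the intensity trend, without the filter or with the median over probe sets (adjusted p = 0.226, 0.0554 and 0.0823). Leaving out 1 pair each time gave 0 to 17 calls for DHT and 0 to 7 for etoposide, the highest of each without the untransfected pair. It gave 8 to 17 between the compounds and 7 to 17 in the steady state. Without the trend there were 7 calls between the compounds and 8 in the steady state, and with the median over probe sets 7 between the compounds. An alternative chosen after seeing the data set the lone arrays against levels fitted from all pairs. Against the fitted DHT level etoposide had 1 call (ACACA, -0.68). Against the fitted deprived level the difference between branches in the steady state was -0.38. With the median over probe sets that difference was -0.12 for etoposide, -0.21 for merbarone and 0.077 between the compounds. The share of higher calls over all genes moved, when arrays were centred on control probe sets, to 32.2% from 20.2% for etoposide (29.3% with quantile normalization again), to 45.1% from 55.7% in the steady state and to 82.8% from 94.3% for DHT. Merbarone's count stayed within 1.5 times under every alternative run. The cause of these changes was not tested. No fit without a pair could be made for the difference between responses, nor for sh-TOP2B over sh-control without either sorted pair. Background correction could not be redone from normalized values. With 1 array a group, no lone array can be left out. The blocks of the fit already pair each DHT array with its control.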
